A study of Homo sapiens with 12 samples.

Results

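The EGF receptor family and its ligands were followed across 4 siRNA groups of MDA-MB-231 cells. The members were taken by gene symbol from the deposited count table: the receptors EGFR, ERBB2 and ERBB3, the ligands AREG, EREG, HBEGF and TGFA, and the feedback inhibitor ERRFI1. All 8 symbols matched 1 row each of the 58051 genes listed, and all 8 passed the filter on low counts in every comparison.

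MDA-MB-231 is a human triple-negative breast cancer cell line with a mesenchymal phenotype. Cells received a non-targeting siRNA pool (siControl), a pool against NELFA (siNELFA), a pool against YAP1 (siYAP), or the NELFA and YAP1 pools together (siNELFA+siYAP), with 3 libraries in each group and 12 in all. NELFA is a subunit of the negative elongation factor, which holds RNA polymerase II paused near promoters, and YAP1 is the Hippo pathway co-activator of TEAD transcription factors. All groups were transfected with DharmaFECT at 50 to 100 nM siRNA. The labels name RNA extraction at 48 h and 72 h, the methods name 72 h for sequencing, and no label says which time a library came from. Knockdown was transient, in 1 cell line, and RNA of whole cultures was measured, so fewer cells with a transcript and less of it per cell cannot be told apart.

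The receptors of this family are tyrosine kinases that pair with each other after ligand binding. EGFR binds all of the ligands measured here, ERBB2 has no known ligand and acts as the preferred partner, and ERBB3 has an impaired kinase and signals through its partner, mainly to PI3K. The ligands are made as membrane-bound precursors that metalloproteases release. ERRFI1 (MIG6) is a cytoplasmic protein induced by receptor signalling that binds the kinase domain and blocks it. In triple-negative breast cancer cells EGFR is commonly abundant, whereas ERBB2 is not amplified.

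The promoters of 3 ligands are shown because the results turn on these genes: AREG and EREG, which lie next to each other on chromosome 4 and were high in the same libraries, and HBEGF, the member with the steadiest difference after NELFA knockdown. Each run is the 250 bases before the RefSeq transcription start (GRCh38.p14), read 5′ to 3′ on the gene's strand. The window of EREG is chr4:74364895-74365144 and that of AREG is chr4:74444886-74445135, both on the plus strand, and the window of HBEGF is chr5:140346604-140346853 on the minus strand. Capitals mark matches to 3 motifs searched on both strands. These were the TEAD motif GGAATG, the AP-1-like pattern TGANTCA with any base at N, and the cAMP response element TGACGTCA.
EREG: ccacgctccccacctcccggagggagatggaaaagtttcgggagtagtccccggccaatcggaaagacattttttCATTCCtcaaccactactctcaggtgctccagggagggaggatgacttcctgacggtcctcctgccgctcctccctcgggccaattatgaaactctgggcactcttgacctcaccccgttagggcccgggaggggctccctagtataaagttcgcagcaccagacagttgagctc
AREG: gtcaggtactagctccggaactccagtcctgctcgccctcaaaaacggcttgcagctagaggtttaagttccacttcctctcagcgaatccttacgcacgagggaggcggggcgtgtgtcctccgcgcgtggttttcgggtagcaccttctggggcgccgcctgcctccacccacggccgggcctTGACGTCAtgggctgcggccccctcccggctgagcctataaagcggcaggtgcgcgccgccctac
HBEGF: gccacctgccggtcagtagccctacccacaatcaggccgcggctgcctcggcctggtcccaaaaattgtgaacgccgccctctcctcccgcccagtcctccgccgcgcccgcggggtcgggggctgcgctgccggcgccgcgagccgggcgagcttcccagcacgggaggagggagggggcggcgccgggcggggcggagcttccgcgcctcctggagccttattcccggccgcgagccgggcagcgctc
The EREG window held 1 TEAD match in reverse orientation, starting 175 bases before the transcription start. The AREG window held 1 cAMP response element, starting 65 bases before the start, and the HBEGF window held none of the 3 motifs. Over 35116 promoter windows of the same length, 11.9% held the TEAD motif, 6.57% the AP-1-like pattern and 1.65% the cAMP response element. Windows were found for 7 of the 8 genes, all but ERBB3. ERBB2 had 1 match to the AP-1-like pattern, TGATTCA. A second start of EGFR had 2 matches to it, TGAGTCA and TGACTCA, and 1 TEAD match. The first start of EGFR and the windows of TGFA and ERRFI1 had none. A match describes letters in the window and says nothing of binding in these cells. In the GENCODE 44 annotation of GRCh38 the EREG gene (chromosome 4, 74365145 to 74388749) ends 56386 bases before AREG (74445136 to 74455005) begins.

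Libraries held 9608145 to 18803104 counts, of which 87.8% to 91.1% lay in protein-coding genes. NELFA averaged 32.4% of its siControl level in siNELFA, 26.4% in siNELFA+siYAP and 100.6% in siYAP, and YAP1 averaged 15.8% in siYAP, 15.3% in siNELFA+siYAP and 97.0% in siNELFA. The 8 markers expected in this line (among them VIM, CD44 and AXL) summed to 3219 to 3954 TPM in every library. Replicate 1 of siControl, siNELFA and siYAP stood apart from the other libraries. Its level differed at least 2-fold from the mean of replicates 2 and 3 for 18.6%, 14.4% and 15.9% of 12971 genes averaging at least 50 counts, against 0.301% in siNELFA+siYAP. In these 3 libraries the epithelial adhesion gene CDH1, expected to be near absent from MDA-MB-231, had 373, 703.5 and 243.3 normalised counts, against 0 to 14.01 in the other 9 libraries. Of the 6 markers expected to be low (ESR1, PGR, CDH1, GATA3, FOXA1 and EPCAM), 3 were higher in each of these libraries than in all others, and the 6 summed to 27.97 to 30.64 TPM there against 7.596 to 12.35 elsewhere. These 3 libraries also had the lowest protein-coding share (87.79% to 88.94%, against 89.3% to 91.07% in the others), the highest share of counts in the top 10 genes (9.003% to 9.958% against 6.776% to 8.474%) and the fewest genes with a count (23138 to 23765 against 24165 to 25917). ESR1 and FOXA1 stayed at or under 5.538 normalised counts in all 12 libraries. The 4 markers of blood, endothelial and liver cells summed to 1.14 to 2.698 TPM in these libraries and 0.262 to 0.9037 elsewhere, with ALB at 0 in all.

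The siNELFA+siYAP libraries carry 1 shared number in their library names followed by an index of 1 to 3, unlike the other groups, although the methods describe independent replicates. Between pairs of these libraries the median chi-square of a gene's counts was 1.24 to 1.33, against 0.455 from counting alone, 3.13 to 4.34 between replicates 2 and 3 of the other groups, and 16.8 to 21.3 between replicate 1 and the others. They differed by more than counting noise, which cannot show whether they come from separate cultures. The range of sample records named in the paper holds fewer records than there are libraries. The paper does not say which libraries share a record. The siNELFA+siYAP libraries were fitted as 3 libraries, and whether they are independent replicates is not known. Each comparison with siNELFA+siYAP, and the interaction, therefore rests on a group with a narrow spread, which may be partly or wholly technical. For siNELFA+siYAP the p-values cover only the spread between these libraries, which may not be a spread between cultures.

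Levels of different genes were compared per transcript length, in the deposited TPM. In siControl the order of mean TPM was ERRFI1 (228 ± 126, SD, n = 3), EGFR (108 ± 10.8), AREG (103 ± 111), TGFA (38.9 ± 11.6), HBEGF (34.5 ± 6.10), ERBB2 (25.4 ± 4.76), EREG (6.94 ± 6.94) and ERBB3 (5.44 ± 4.72). ERRFI1 stood above EGFR in every siControl library, while AREG ranged from 30.1 to 231 TPM and overlapped all of its neighbours, and TGFA, HBEGF and ERBB2 overlapped in steps. In siNELFA+siYAP the order was ERRFI1 (182 ± 8.37), EGFR (122 ± 4.05), HBEGF (52.7 ± 3.32), TGFA (34.1 ± 2.60), AREG (32.1 ± 0.154), ERBB2 (17.2 ± 1.34), EREG (2.66 ± 0.544) and ERBB3 (1.59 ± 0.530). There only TGFA with AREG, and EREG with ERBB3, overlapped. The TPM did not follow the counts in every library: EREG in siYAP had 5.26 TPM in replicate 2 and 3.05 in replicate 3, but 124 and 168 normalised counts.

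The family members with no place among the 8 were mostly near zero. ERBB4, the fourth receptor, had at most 3 counts in a library, NRG3 had none in any library, and BTC, EPGN and NRG2 had at most 20, 10 and 10 counts. EGF was detected at 0.585 to 3.46 TPM and NRG4 at 8.07 to 48.0 TPM. NRG1, a ligand of ERBB3, ranged from 20.2 to 35.7 TPM and had the highest mean of them in each group, although the highest NRG4 library was above it. None of the 3 to 4 that passed the filter was called in any of the 5 comparisons. NRG1 differed by 0.01 ± 0.23 (SE) on the log2 scale in siNELFA, by -0.04 ± 0.21 in siYAP and by 0.08 ± 0.15 in siNELFA+siYAP against siControl.

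Normalised counts, scaled to one effective library size by TMM factors, give the levels of 1 gene across libraries. EGFR had 8266, 8582 and 11643 normalised counts in replicates 1, 2 and 3 of siControl. It had 7477, 8818 and 12296 in siNELFA and 8737, 8198 and 11789 in siYAP. The 3 double knockdown libraries had 12683, 12381 and 12113. EGFR in the double knockdown was thus above every siControl and siYAP library, while replicate 3 of siNELFA lay within its range. ERBB2 had 684, 1206 and 1142 normalised counts in siControl, and 882, 1159 and 951 in siNELFA. It had 922, 1080 and 775 in siYAP and 733, 713 and 738 in the double knockdown. The double knockdown lay below all siNELFA and siYAP libraries, and only replicate 1 of siControl was lower.

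ERBB3 was the receptor with the lowest level and the widest spread. It had 264, 57.7 and 66.6 normalised counts in siControl and 206, 56.1 and 69.8 in siNELFA. It had 324, 91.9 and 60.9 in siYAP and 63.2, 43.9 and 36.2 in the double knockdown. Replicate 1 was 4.25-fold, 3.27-fold and 4.31-fold above the geometric mean of replicates 2 and 3 in siControl, siNELFA and siYAP. The groups overlapped in every comparison. Among replicates 2 and 3 alone, the double knockdown (43.9 and 36.2) lay below siControl, siNELFA and siYAP. Its replicate 1 (63.2) lay within the range of replicates 2 and 3 of each of these groups. The replicate 1 libraries are those in which CDH1 was present and the quality measures above differed, and the part of those differences in the levels of ERBB3, AREG, EREG and ERRFI1 was not tested.

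AREG, the ligand amphiregulin, had 3023, 615 and 426 normalised counts in siControl and 2735, 713 and 339 in siNELFA. It had 3012, 819 and 526 in siYAP and 483, 479 and 464 in the double knockdown. Replicate 1 was 5.90-fold, 5.56-fold and 4.59-fold above the other replicates of siControl, siNELFA and siYAP, and 1.03-fold in siNELFA+siYAP. EREG, the ligand epiregulin, had 530, 162 and 141 normalised counts in siControl and 405, 121 and 92.0 in siNELFA. It had 436, 124 and 168 in siYAP and 151, 154 and 118 in the double knockdown. Replicate 1 of EREG stood 3.51-fold, 3.83-fold and 3.02-fold above its group in the first 3 groups, and its lowest level was that of siNELFA replicate 3.

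HBEGF and TGFA ran the other way in replicate 1. HBEGF, heparin-binding EGF-like growth factor, had 704, 961 and 1027 normalised counts in siControl and 730, 982 and 1016 in siYAP. It had 1077, 1548 and 1847 in siNELFA and 1423, 1647 and 1512 in siNELFA+siYAP. Every library with NELFA knocked down was above every library without it, and the share of all genes split in this way was not counted. In TPM the split did not hold. There siNELFA replicate 1 (32.5) was below replicates 2 and 3 of siControl (38.4 and 37.7) and siYAP (35.5 and 36.8). By counts, replicate 1 of siControl, siNELFA and siYAP held 0.709, 0.637 and 0.731 of the HBEGF level of replicates 2 and 3. TGFA, transforming growth factor alpha, had 1085, 1765 and 1716 in siControl and 1183, 1626 and 1654 in siNELFA. It had 1207, 1896 and 1791 in siYAP and 1687, 1660 and 1572 in the double knockdown. The TGFA ranges overlapped in all comparisons.

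ERRFI1 had 11812, 4926 and 5189 normalised counts in siControl and 10346, 5898 and 5056 in siNELFA. It had 10272, 5532 and 4815 in siYAP and 6501, 6542 and 6488 in the double knockdown. Its replicate 1 level was 2.34-fold, 1.89-fold and 1.99-fold that of replicates 2 and 3 in the first 3 groups and 0.998-fold in the double knockdown, which lay between replicate 1 and the other replicates of each group.

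The make-up of the ligand pool followed the same split. AREG made up 72.0% to 78.5% of the summed TPM of the 4 ligands in replicate 1 of siControl, siNELFA and siYAP. In replicates 2 and 3 of these groups it made up 18.8% to 40.0%, and in siNELFA+siYAP 25.2% to 27.2%. HBEGF made up 9.15% to 14.2%, 26.0% to 51.8% and 41.6% to 44.4% of the pool in the same sets of libraries. The highest HBEGF share, 51.8%, was that of siNELFA replicate 3. Among the 3 receptors, EGFR supplied 70.7% to 77.0% of the TPM in the replicate 1 libraries, 76.0% to 84.7% in replicates 2 and 3, and 86.4% to 86.9% in siNELFA+siYAP. ERBB3 supplied 7.26% to 11.6%, 1.34% to 2.33% and 0.866% to 1.62%.

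The comparison of siNELFA with siControl asks which genes depend on the pausing factor. HBEGF was 1.66-fold higher on average in siNELFA, higher in 3 of 3 replicate numbers, and the groups did not overlap. Its log2 fold change was 0.73 ± 0.25 (SE, n = 3 per group), with an adjusted p of 1.00 by edgeR's quasi-likelihood test over 17727 genes. Of all genes tested, 12.2% had groups that did not overlap, 4.46% had a nominal (unadjusted) p under 0.05 and 0.00564% passed the adjusted threshold of 0.05. HBEGF was the 1 member of 8 past the nominal threshold, and no member passed the adjusted one. With the replicate number as a block, HBEGF rose by 0.72 ± 0.11 with an edgeR adjusted p of 0.00355, and 5.21% of all genes were called in that fit. Whether replicates 2 and 3 pair by number was not tested. Without replicate 1 of both groups its log2 fold change was 0.78 ± 0.13 (edgeR adjusted p = 0.0671), and 0.0996% of all genes were called. On the TPM scale the groups overlapped, at 27.5 to 38.4 TPM in siControl and 32.5 to 63.1 TPM in siNELFA, and the lowest log2 fold change over the 15 alternatives, 0.47, was of that scale.

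The other members showed no called difference after NELFA knockdown. EGFR differed by 0.01 ± 0.24 on the log2 scale, ERBB2 by -0.02 ± 0.25, TGFA by -0.03 ± 0.24 and ERRFI1 by -0.04 ± 0.42. With the block these standard errors fell to 0.09 to 0.13, and the differences stayed within 0.02 of zero. EREG had the next largest difference, -0.43 ± 0.71. In the blocked fit it was -0.47 ± 0.17 with an adjusted p of 0.127 by edgeR, lower in siNELFA in 3 of 3 replicate numbers. AREG differed by -0.10 ± 0.93 and ERBB3 by -0.22 ± 0.73, where the replicate 1 libraries set the error.

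siYAP was compared with siControl to find genes that depend on YAP1 itself. No member passed the adjusted or the nominal threshold by edgeR, and the groups of no member were apart, against 0.00578%, 1.3% and 7.76% of 17296 genes. HBEGF differed by 0.02 ± 0.22 on the log2 scale, EGFR by 0.01 ± 0.22, TGFA by 0.10 ± 0.26, ERRFI1 by -0.10 ± 0.42 and ERBB2 by -0.13 ± 0.25. AREG (0.08 ± 0.87), EREG (-0.20 ± 0.64) and ERBB3 (0.29 ± 0.79) had the largest errors. For every member the error was larger than the difference. The block gave AREG 0.23 ± 0.13 (adjusted p = 0.591 by edgeR) and called no member either, with 0.0173% of all genes called. Without replicate 1 of both groups no member was called, and 0.00559% of all genes were.

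In the double knockdown compared with siControl, HBEGF and EGFR were the members whose groups did not overlap, both higher, as were the groups of 29.8% of 17533 genes. HBEGF was 1.69-fold higher (log2 0.76 ± 0.16, adjusted p = 0.0841 by edgeR) and EGFR 1.30-fold higher (0.37 ± 0.14, adjusted p = 0.238). These were the 2 of 8 members past the nominal threshold, which 18.5% of all genes passed, and no member passed the adjusted one, as against 0.428% of all genes. HBEGF passed the adjusted threshold under DESeq2 and with no filter on low counts. DESeq2 called 372 genes higher and 562 lower of 32094, and the fit with no filter called 139 higher and 242 lower of 32116. ERBB2 had a log2 fold change of -0.49 ± 0.21, ERBB3 of -1.44 ± 0.63, AREG of -1.53 ± 0.70 and EREG of -0.98 ± 0.51, with edgeR adjusted p of 0.273 to 0.360. TGFA (0.10 ± 0.19) and ERRFI1 (-0.18 ± 0.33) were near the control mean.

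Without siControl replicate 1, AREG, EREG and ERBB3 differed by -0.13 ± 0.13, -0.11 ± 0.18 and -0.40 ± 0.28, none of them called. ERRFI1 changed direction and was called, at 0.36 ± 0.05 (edgeR adjusted p = 0.000123). HBEGF was called at 0.62 ± 0.08 (adjusted p = 5.08e-05), EGFR at 0.29 ± 0.09 (adjusted p = 0.0243) and ERBB2 at -0.69 ± 0.08 (adjusted p = 1.54e-05). Thus 4 of 8 members passed, beside 24.4% of 18587 genes tested without that library. Leaving out any of the other 5 libraries called 0 members by edgeR. The errors without siControl replicate 1 rest in part on the narrow spread of siNELFA+siYAP, whose libraries may not be separate cultures. The same limit holds for the fits against siYAP and siNELFA without their replicate 1.

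Set against siYAP, the double knockdown shows the effect of NELFA siRNA in cells that also received YAP1 siRNA. HBEGF had a log2 fold change of 0.74 ± 0.15 (adjusted p = 0.131 by edgeR), and EGFR of 0.37 ± 0.15 (adjusted p = 0.304). ERBB2 stood at -0.35 ± 0.15, AREG at -1.62 ± 0.59 and ERBB3 at -1.74 ± 0.63, with adjusted p of 0.268 to 0.310. These 5 members passed the nominal threshold along with 15.5% of 17167 genes, and none passed the adjusted one, which 0.035% did. HBEGF and EGFR lay above and ERBB2 and AREG below every siYAP library, as did the groups of 26.5% of genes in either direction. Without siYAP replicate 1, HBEGF (0.61 ± 0.08, adjusted p = 0.000595), ERRFI1 (0.33 ± 0.07, adjusted p = 0.00613) and AREG (-0.50 ± 0.15, adjusted p = 0.0426) were called by edgeR, as were 16.5% of 17773 genes. ERBB3 was then at -0.69 ± 0.31 (adjusted p = 0.158).

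Set against siNELFA, it shows the effect of YAP1 siRNA in cells that also received NELFA siRNA. HBEGF differed by 0.03 ± 0.19 on the log2 scale, and its siNELFA range enclosed the double knockdown. ERBB2 had a log2 fold change of -0.46 ± 0.13 (adjusted p = 0.735 by edgeR) and was the 1 member whose groups did not overlap, as for 15.1% of 17463 genes. It was also the only member past the nominal threshold, with 6.62% of all genes, and no member passed the adjusted one, with 0.00573%. EGFR stood at 0.38 ± 0.18, TGFA at 0.14 ± 0.15, ERRFI1 at -0.13 ± 0.25, EREG at -0.54 ± 0.53 and ERBB3 at -1.21 ± 0.53. Without siNELFA replicate 1, ERBB2 was called at -0.54 ± 0.10 (adjusted p = 0.0243 by edgeR), beside 1.25% of 18286 genes, and AREG moved from -1.41 ± 0.66 to -0.15 ± 0.22. ERBB3 was then at -0.42 ± 0.30, and EREG changed direction to 0.40 ± 0.20, neither called.

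The interaction term asks whether the YAP1 siRNA acted differently with and without the NELFA siRNA. For HBEGF it was 0.02 ± 0.30 on the log2 scale, for TGFA 0.04 ± 0.31 and for ERRFI1 -0.04 ± 0.54. For EGFR it was 0.37 ± 0.29, for ERBB2 -0.33 ± 0.30, for EREG -0.35 ± 0.93, for AREG -1.51 ± 1.24 and for ERBB3 -1.51 ± 1.06. Leaving out 1 library moved AREG between -2.87 (without siControl replicate 1) and -0.24 (without siNELFA replicate 1), and ERBB3 between -2.53 (without siControl replicate 1) and -0.46 (without siYAP replicate 1). It moved EGFR between 0.19 and 0.60 and ERBB2 between -0.47 and -0.11. No member passed the adjusted or the nominal threshold in the unblocked edgeR fit with all libraries. Over all 18525 genes that fit called 0 at the adjusted threshold and 326 (1.76%) at the nominal one, and DESeq2 also called 0 at the adjusted threshold. With the replicate block ERBB3, at -1.27, was the 1 member past the nominal threshold, along with 285 genes higher and 442 lower. No member passed the adjusted threshold there, and the numbers of the siNELFA+siYAP libraries were no pairs. A different effect of the YAP1 siRNA in the presence of the NELFA siRNA was not detectable at the adjusted threshold for these genes with 3 libraries per group.

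ERBB3 (a range of 1.38 on the log2 CPM scale) and then AREG had the widest range of group means. The genes most like AREG over the 12 libraries were LOXL4, LINC00173 and HLA-DMB, with a root mean square difference of centred log2 CPM of 0.182, 0.184 and 0.205, against a spread of AREG itself of 1.12. Those most like ERBB3 were DAPK2, CLU and CDON at 0.270, 0.277 and 0.326, against 0.986. Within the family, AREG was nearest to ERBB3 (0.420) and EREG (0.466). These measures share the 12 libraries, in which AREG and ERBB3 were highest in replicate 1 of siControl, siNELFA and siYAP.

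The genes that release the ligands from the cell surface were described by their median. All 10 genes of this list (the sheddases ADAM9, ADAM10, ADAM12, ADAM15 and ADAM17, their regulators RHBDF1, RHBDF2 and FRMD8, the protease RHBDL2 and the inhibitor TIMP3) were tested. Their median log2 fold change was 0.35 in the blocked siNELFA fit, beside 0.01 over all genes. Of the 10, 5 passed the nominal threshold, all higher, beside 10.5% of all genes past it and higher and 20.2% in either direction. FRMD8, which stabilises the rhomboid partners of ADAM17, was the 1 called, beside 5.21% of all genes in that fit. It had 210.8, 462.4 and 552.5 normalised counts in siControl and 368.8, 655.5 and 828.7 in siNELFA, higher in 3 of 3 replicate numbers although the ranges overlapped. It rose by 0.62 ± 0.14 in the blocked fit (edgeR adjusted p = 0.0197), and had 0.60 ± 0.41 with no block (adjusted p = 1.00). In the blocked siYAP fit 3 of the 10 passed the nominal threshold and were higher and 1 was lower, with none called. The list's median there was 0.05. Of all 17296 genes in that siYAP fit, 883 were higher and 692 lower at the nominal threshold. In the double knockdown FRMD8 had 793.3, 819.8 and 856.7 normalised counts (log2 0.99 ± 0.31 against siControl, adjusted p = 0.168). With all 6 libraries 0 of the 10 were called in the double knockdown by edgeR, where 3 were higher at an unadjusted p under 0.05. Without siControl replicate 1, 5 of the 10 were called there, all higher, beside 11.5% of all genes called higher and 24.4% in either direction. These were FRMD8 (0.69), ADAM17 (0.58), RHBDF2 (0.51), ADAM15 (0.33) and ADAM10 (0.33), named after their values were seen.

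The downstream lists had medians of -0.10 to 0.06 on the log2 scale. Of 21 adaptor and RAS-ERK genes, BRAF was the 1 called in the blocked siNELFA fit, beside 5.21% of all genes. It had 1756, 1208 and 1157 normalised counts in siControl and 1227, 924.9 and 907.1 in siNELFA, lower in 3 of 3 numbers, with ranges that overlapped. BRAF fell by 0.42 on the log2 scale (SE 0.11, edgeR adjusted p = 0.0454), and stood at -0.43 ± 0.23 with no block (adjusted p = 1.00). The list's median was -0.02 in that fit, -0.02 in siYAP and -0.06 in the double knockdown. The 10 PI3K-AKT genes had medians of 0.06 (blocked siNELFA), -0.07 (blocked siYAP) and -0.04 (double knockdown), with none called. Of the 22 genes of receptor attenuation and trafficking (LRIG and CBL proteins, phosphatases and endosomal sorting factors) 21 were tested, with medians of 0.01, -0.09 and -0.10 in the same fits and none called. CBLC, at most 15 counts in a library, was not tested. Without siControl replicate 1, genes of the downstream lists were also called in the double knockdown, in both directions. These were 3 higher and 4 lower of the 21 adaptor and RAS-ERK genes, 2 higher and 1 lower of the 10 PI3K-AKT genes, and 6 higher and 1 lower of the 21 attenuation and trafficking genes. Of all 18587 genes tested in that fit, 24.4% were called in either direction and 11.5% were called higher.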

How the data were processed

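Stranded, rRNA-depleted total RNA libraries were sequenced, 12 in 4 groups. The authors mapped trimmed reads with STAR against GRCh38 and the Ensembl 87 annotation, and the deposited counts are unnormalised reads per gene from featureCounts. The authors also deposited TPM per library. TPM were used for levels between genes and as an alternative, and a further FPKM table was not used. Tool versions are not given in the sources used here.

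Each comparison was fitted on its 6 libraries with edgeR 4.0.16 in R 4.3.3 (quasi-likelihood test, TMM factors, filterByExpr with 10 counts, a total of 15 and a proportion of 70%, no block). A gene was called where its p, after Benjamini-Hochberg adjustment over every gene in that fit, was under 0.05. Normalised counts divide each count by the effective library size and multiply by the mean size. The script was tested on simulated counts. Alternatives were DESeq2 1.42.0, RLE factors, no filter, all 12 libraries in one fit, limma 3.58.1 on log2(TPM + 1) or log2(TPM + 0.1), the replicate block, and leaving out each library. A further one, without replicate 1 of both groups, was added after seeing the data.

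Replicate numbers come from the labels. For 12971 genes the difference of each library from its group's mean was taken. Between same-numbered libraries of the single siRNA groups and the control these differences had a correlation of 0.638 to 0.885, and between them and the siNELFA+siYAP libraries of -0.0532 to 0.0326. Only the former were treated as pairs. The differences of a group cancel out over its libraries, so a replicate 1 far from the others moves replicates 2 and 3 the same way. The correlations therefore do not show that replicates 2 and 3 pair by their own numbers. Libraries of different numbers were not correlated. These are correlations across genes, which are not independent of each other.

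The members and the pathway lists were chosen with earlier results of these data known. All 8 members, the targeted genes and the remaining receptors and ligands were named. Other list genes were named singly where they passed the adjusted threshold in the unblocked fit, or the blocked fit for numbers treated as pairs. The exceptions are those that the text says were named after their values were seen. The 3 genes most like each of the 2 members with the widest range of group means were also named. Promoters are those of RefSeq on GRCh38.p14, matched by symbol, and coordinates are from GENCODE 44.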

Additional observations from a re-analysis of the deposited data

How the results depend on the processing

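HBEGF kept its direction in all 15 alternatives for siNELFA against siControl and in all 14 for the double knockdown against siControl and against siYAP, as did EGFR, ERBB2, ERBB3, AREG and EREG in the 14 alternatives of the last 2 comparisons. Counts of members called at the adjusted threshold rose from 0 to 1 (HBEGF) with the replicate block in siNELFA, and with DESeq2 or no filter in the double knockdown against siControl (1 and 1) and against siYAP (1 and 1). Leaving out 1 library gave 0 to 4, 0 to 3 and 0 to 1 members in the double knockdown against siControl, siYAP and siNELFA. Beside HBEGF, FRMD8 and BRAF in siNELFA, the replicate block changed no call of a member or list gene. The numbers of the siNELFA+siYAP libraries were no pairs.

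Over all genes, the edgeR calls (1 in siNELFA, 1 in siYAP, 75, 6 and 1 in the double knockdown against siControl, siYAP and siNELFA) moved with the setting. DESeq2 called 18 of 32069 genes in siNELFA, and 934 of 32094, 499 of 31900 and 49 of 32085 in the double knockdown. No filter gave 3 of 32101 in siNELFA, and 381 of 32116, 222 of 31923 and 26 of 32110 in the double knockdown. All 12 libraries in one fit gave 8 in siNELFA, and omitting replicate 1 of both groups gave 18 there. The replicate block gave 924, 3, 2 and 1 in siNELFA, siYAP and the double knockdown against siControl and siYAP. limma on log2(TPM + 1) called 5, 3, 9, 3 and 8 in the 5 comparisons, with no filter 3, 2, 4, 0 and 5, and with a pseudocount of 0.1 it called 12, 17, 20, 9 and 24. The limma count of 0 goes with 1076 genes higher and 1686 lower at an unadjusted p under 0.05. Leaving out 1 library gave 0 to 1, 0 to 1, 0 to 4531, 0 to 2937 and 1 to 228 calls by edgeR, the highest without replicate 1 of siControl, siYAP and siNELFA in the last 3. The cause of these differences was not tested.

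Small differences changed sign. On the log2(TPM + 1) scale, filtered or not, EGFR was -0.24 in siNELFA and -0.0878 in siYAP, ERBB3 -0.0600, HBEGF -0.0673 and TGFA -0.0839 in siYAP, TGFA -0.14 in the double knockdown against siControl and -0.0595 against siYAP, and ERRFI1 0.0183 against siNELFA. With a pseudocount of 0.1 these were -0.25, -0.0887, -0.16, -0.0692, -0.0857, -0.15, -0.0602 and 0.0187, and EREG in siYAP was 0.0210. That scaling moved the median of all genes by -0.19 in siNELFA and -0.13 in the double knockdown, so signs on it are relative to that shift. With the replicate block, EGFR was -0.00704, ERBB2 0.00751 and ERRFI1 0.0116 in siNELFA, ERRFI1 0.00168 in the double knockdown against siYAP and 0.0508 in the interaction. Without replicate 1 of both groups, ERBB3 was 0.0279, AREG 0.0232 and ERRFI1 0.12 in siNELFA, and EGFR -0.0144 and ERRFI1 0.0351 in siYAP.

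Leaving out 1 library, siNELFA against siControl ranged from -0.22 to 0.18 for EGFR, -0.23 to 0.13 for ERBB2, -1.01 to 0.83 for ERBB3, -1.36 to 1.28 for AREG, -1.37 to 0.44 for EREG, -0.22 to 0.11 for TGFA and -0.41 to 0.50 for ERRFI1. siYAP against siControl ranged from -0.18 to 0.18 for EGFR, -0.34 to 0.00477 for ERBB2, -0.75 to 1.34 for ERBB3, -1.02 to 1.48 for AREG, -0.92 to 0.67 for EREG, -0.12 to 0.15 for HBEGF, -0.0900 to 0.27 for TGFA and -0.51 to 0.44 for ERRFI1. For the double knockdown, TGFA ranged from -0.0914 to 0.22, -0.17 to 0.13 and -0.00474 to 0.22 and ERRFI1 from -0.40 to 0.36, -0.28 to 0.33 and -0.32 to 0.25 against siControl, siYAP and siNELFA, and EREG from -0.89 to 0.40 and HBEGF from -0.16 to 0.22 against siNELFA. The interaction ranged from -2.87 to -0.24 for AREG, -2.53 to -0.46 for ERBB3, 0.19 to 0.60 for EGFR, -0.47 to -0.11 for ERBB2, -1.20 to 0.60 for EREG, -0.17 to 0.21 for HBEGF, -0.13 to 0.23 for TGFA and -0.56 to 0.38 for ERRFI1.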
